A study of Mus musculus with 6 samples.

Results

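Insulin-like growth factor (IGF) signalling was followed through 10 genes in cultured mouse neural progenitors (labelled NPC), which are able to form neurons and glial cells. The genes were taken by symbol from the table of counts: the ligand gene Igf1, the receptor genes Igf1r and Insr, the adaptor genes Irs1 and Irs2, and the binding protein genes Igfbp2, Igfbp3, Igfbp4, Igfbp5 and Igfbp7. They are 10 of 42365 rows, and 9 of them were among the 24506 genes with enough counts to be tested; Igf1 was not. RNA of 6 libraries was sequenced, 2 in each of 3 groups: parental cells of wild-type genotype, a knockout clone (clone 1), and another knockout clone (clone 2) of the same targeted gene. All 6 are of the same cell line label, and no treatment is given. Each knockout group is a single clone, so a difference between a clone and the parental cells can belong to the genotype or to that clone. The titles number the 2 parental libraries as clones 1 and 2 as well, while the 2 libraries of each knockout group share a clone number. The labels name 2 library kits without saying which library had which, so a difference between groups could also belong to the kit, which was not tested. The parental libraries had 37419 and 37678 genes with a count, against 30747 to 32686 in the knockout groups, and the part of this in the results was not tested. Since the genotype is taken from the labels, the clones are called labelled knockout, and every direction below rests on those labels. Library totals ran from 58871554 to 69530032 counts.

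As background, IGF1, IGF2 and insulin act through 2 related receptor tyrosine kinases, encoded by Igf1r and Insr, which phosphorylate the adaptors IRS1 and IRS2 and so switch on the PI3K, AKT and mTOR branch and hold back the FOXO factors. The IGF binding proteins are secreted, hold IGF1 and IGF2 outside the cell and can block or prolong their action; IGFBP7 binds IGF weakly and is counted as a related protein. In neural progenitors this pathway is known for growth, survival and the choice between division and differentiation.

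The differences were largest among the binding proteins, so the sequence just upstream of 4 of their genes is shown first. Each run is the 250 bases before the RefSeq transcript start, read 5′ to 3′ on the gene's own strand (build GRCm38.p6). Igfbp2 had 2 starts listed, of which only the first was used. Capitals mark matches, on either strand, to 4 motifs: the TATA box letters TATAAA and the variant TATATA, the GC box GGGCGG and the E-box CACGTG. These motifs were chosen after the sequences had been seen. The window of Igfbp2 lies at chr1:72824230-72824479 on the plus strand, that of Igfbp3 at chr11:7213924-7214173 on the minus strand, that of Igfbp4 at chr11:99040994-99041243 on the plus strand, and that of Igfbp5 at chr1:72874866-72875115 on the minus strand.
Igfbp2: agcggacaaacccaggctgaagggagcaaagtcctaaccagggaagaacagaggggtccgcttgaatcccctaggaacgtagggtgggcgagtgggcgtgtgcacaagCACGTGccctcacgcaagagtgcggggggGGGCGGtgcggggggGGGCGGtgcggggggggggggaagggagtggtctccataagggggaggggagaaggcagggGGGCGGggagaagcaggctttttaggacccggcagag
Igfbp3: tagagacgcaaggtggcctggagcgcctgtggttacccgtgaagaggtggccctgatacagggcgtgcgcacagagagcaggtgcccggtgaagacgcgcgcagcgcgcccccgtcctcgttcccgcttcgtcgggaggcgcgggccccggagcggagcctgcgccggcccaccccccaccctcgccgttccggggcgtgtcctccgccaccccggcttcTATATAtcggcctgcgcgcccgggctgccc
Igfbp4: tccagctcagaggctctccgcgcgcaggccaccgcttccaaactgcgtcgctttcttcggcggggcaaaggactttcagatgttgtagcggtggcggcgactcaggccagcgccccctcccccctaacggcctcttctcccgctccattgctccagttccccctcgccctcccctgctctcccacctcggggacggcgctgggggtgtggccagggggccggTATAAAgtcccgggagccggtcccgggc
Igfbp5: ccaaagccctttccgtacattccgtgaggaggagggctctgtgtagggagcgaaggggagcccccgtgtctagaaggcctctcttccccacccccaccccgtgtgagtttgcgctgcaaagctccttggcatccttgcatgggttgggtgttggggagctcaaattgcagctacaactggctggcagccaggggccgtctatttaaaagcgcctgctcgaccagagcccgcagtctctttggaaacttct
The 3 genes with the largest rises had different letters here. Igfbp2 held 3 GC boxes and 1 E-box and no TATA match, Igfbp3 had TATATA beginning at -30, and Igfbp4 had TATAAA beginning at -28, counted from the transcript start. The window of Igfbp5 held none of the 4 motifs, but it did hold the letters tatttaaa, which were not among those searched. Its last bases lie inside the gene as placed by GENCODE, which ends at 72874884, so absence of a match depends on motif and start chosen. Over all 32851 windows of this length in the RefSeq table, 12.4% held TATAAA, 5.25% TATATA, 32.7% GGGCGG and 6.02% CACGTG. Of the 9 genes of the set with a window, 5 held GGGCGG (Igf1r, Irs1, Irs2, Igfbp2 and Igfbp7) and 3 held CACGTG (Irs1, Irs2 and Igfbp2). The windows of these genes were 67.2% (Igfbp2) to 77.6% (Igf1r) G or C, against a median of 52.4% over all windows. Igfbp3 (73.2%) and Igfbp4 (69.2%) held neither motif. The part of base composition in these counts was not tested. A match is a description of these letters and says nothing of binding.

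Labelled knockout cells were first compared with parental cells with the 2 clones as replicates (the libraries of a clone added, 2 clones against 2 parental libraries). Transcripts of Igfbp2, Igfbp3 and Igfbp4 were more than 10-fold higher, those of Igfbp7 were 3.78-fold higher, and those of Igfbp5 were 2.56-fold lower. Insr, Irs1 and Irs2 were higher by 1.52-fold, 1.35-fold and 1.48-fold. Igf1r was higher in all 4 labelled knockout libraries but did not pass the test (1.55-fold, adjusted p = 0.0663). Igf1 transcripts were at or near 0 in all 6 libraries. By edgeR's quasi-likelihood test 8 of the 9 tested genes passed an adjusted p of 0.05, 7 higher and 1 lower; over all genes tested the share that passed was 26.7%, 13% higher and 13.6% lower. In all 9 the 4 labelled knockout libraries lay on 1 side of both parental libraries, as did 56.6% of all genes tested. When either parental library was left out, 4 of the 9 passed (Igfbp2, Igfbp3, Igfbp4 and Igfbp7), and Insr, Irs1, Irs2 and Igfbp5 did not (adjusted p from 0.117 to 0.322). In bulk RNA, more cells of a type and more RNA per cell cannot be told apart.

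**Figure D1:**
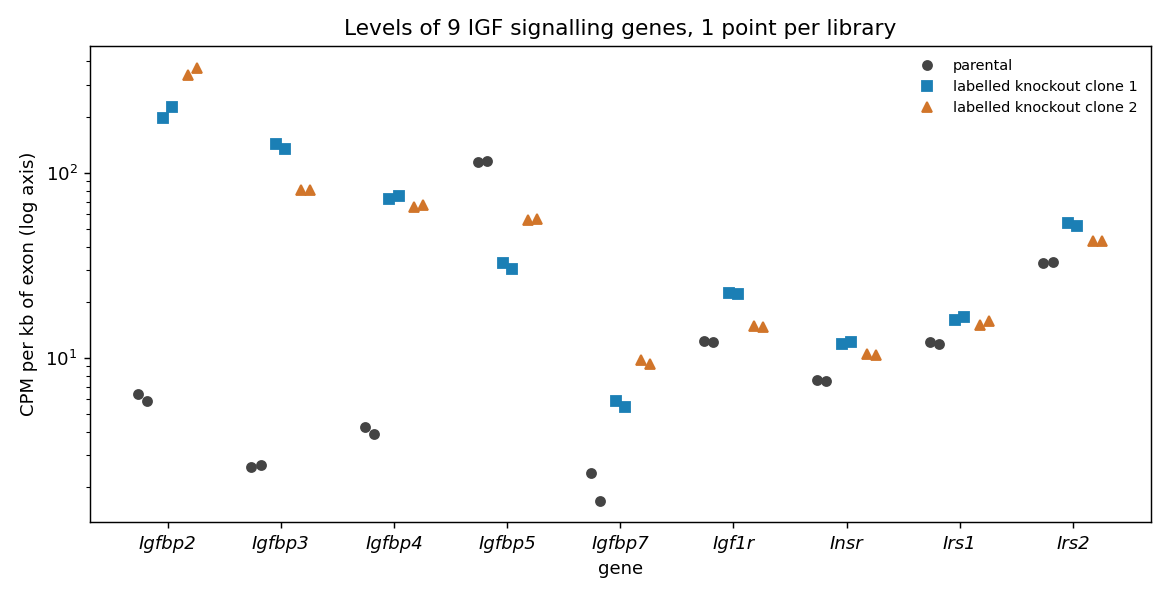
Level of each gene in each library, in CPM per kb of exon on a log axis, 1 point per library (2 parental, 2 of clone 1, 2 of clone 2); Igf1, at or near 0, is not drawn. Igfbp2, Igfbp3 and Igfbp4 sit between 2.58 and 6.36 in the parental libraries and between 65.1 and 370.6 in the labelled knockout libraries, while Igfbp5 is lower there.

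Igfbp2 encodes a binding protein abundant in the developing brain. In CPM (counts scaled to a common library size) the parental libraries had 11.7 and 10.8, against 365 and 418 in clone 1, and 620.3 and 684 in clone 2. The 3 groups did not overlap, with clone 2 the highest. The log2 fold change of labelled knockout against parental was 5.57 (SE 0.31, adjusted p = 0.000492, edgeR). Clone 1 was higher than parental by 5.12 (SE 0.084) and clone 2 by 5.86 (SE 0.086) on the log2 scale in the fit of single libraries.

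Igfbp3 encodes the main IGF carrier of blood plasma. The parental libraries had 8.07 and 8.28 CPM, against 447 and 424 in clone 1, and 254 and 252 in clone 2. Here clone 1 was the highest, the reverse of Igfbp2, and again no groups overlapped. The log2 fold change was 5.42 (SE 0.31, adjusted p = 0.000532, edgeR), with 5.73 (SE 0.055) in clone 1 and 4.95 (SE 0.054) in clone 2.

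Igfbp4 encodes a binding protein known to inhibit IGF action until it is cut by the protease PAPP-A. The parental libraries had 18.7 and 17.2 CPM, against 319 and 331 in clone 1, and 288 and 298 in clone 2. The 2 clones lay close together, far above the parental libraries. The log2 fold change was 4.13 (SE 0.11, adjusted p = 0.00013, edgeR). Igfbp2, Igfbp3 and Igfbp4 each had a log2 fold change over 4 in both clones; 146 of the 24506 genes tested (0.596%) were higher by that much in labelled knockout against parental, 0.701% in clone 1 and 0.513% in clone 2.

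Igfbp5, whose product binds IGF and the extracellular matrix, had 684 and 695 CPM in parental cells, against 196 and 183 in clone 1, and 336 and 338 in clone 2. It was the one tested gene of the set that was lower, and clone 1 was the lowest. The log2 fold change was -1.35 (SE 0.28, adjusted p = 0.0258, edgeR), and -1.86 (SE 0.044) in clone 1 and -1.03 (SE 0.043) in clone 2. With no filter on low counts its adjusted p was 0.094 (log2 fold change -1.26). Igfbp2 and Igfbp5 are neighbours on chromosome 1 of GRCm38 (72824503 to 72852474 on the plus strand and 72857932 to 72874884 on the minus strand). Their 3′ ends face each other across 5457 bases, and they went in opposite directions in both clones.

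Igfbp7 was the lowest of the 5 binding proteins of the set in CPM. Parental cells had 2.9 and 2.05 CPM, against 7.05 and 6.57 in clone 1, and 11.7 and 11.2 in clone 2. The groups did not overlap, and clone 2 was the highest. The log2 fold change was 1.92 (SE 0.33, adjusted p = 0.0128, edgeR). Its gene (chromosome 5, 77349240 to 77408041, minus strand) shares 85 of its 1209 exon bases with Polr2b on the other strand. Polr2b had 37271 counts over the 6 libraries, beside 2690 for Igfbp7, and whether the counting used strand is unknown. Igfbp7 is also known from blood vessel cells. Of 7 endothelial markers, 5 were under 1 CPM in every library (Cldn5, Pecam1, Cdh5, Flt1 and Esam). Tek rose from 0.240 CPM to 1.34 in clone 1 and 0.814 in clone 2 (adjusted p = 0.0234, edgeR). Kdr was at 0.378, 1.32 and 0.343 CPM in the same order and did not pass. The summed level of all 7 was 2.19 to 2.56 CPM in parental, 3.97 to 4.82 in clone 1 and 2.39 to 2.51 in clone 2.

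**Figure D2:**
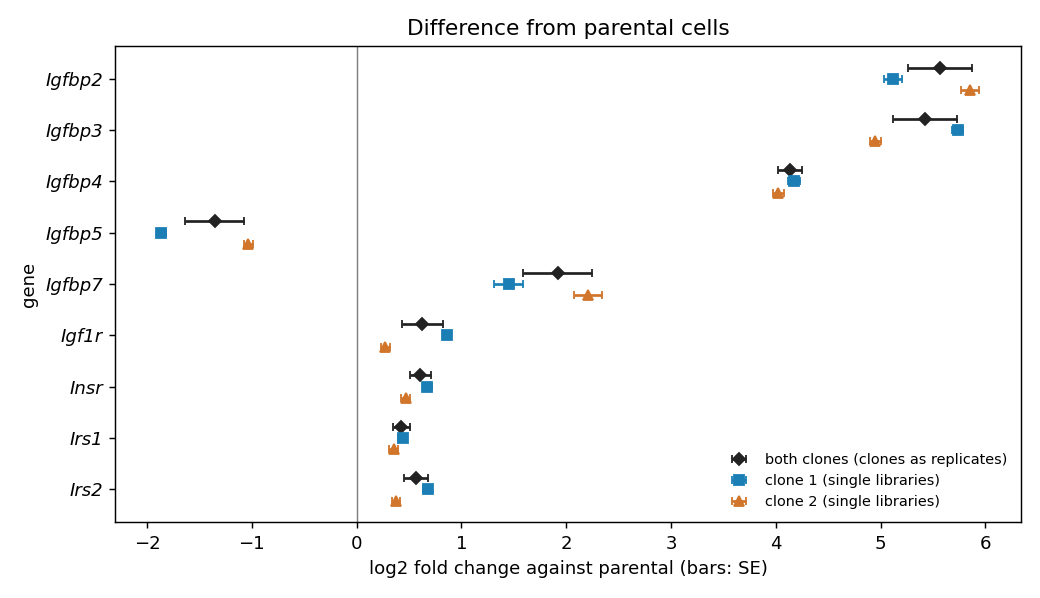
Log2 fold change against parental cells for the 9 tested genes (horizontal axis, bars are SE), with both clones as replicates (diamonds) and for each clone in the fit of single libraries (squares and triangles). Igfbp2, Igfbp3 and Igfbp4 lie beyond 3.9, Igfbp5 lies below 0, and the receptor and adaptor genes lie between 0.28 and 0.86.

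To compare genes with each other, CPM was divided by the length of each gene's exons in kb. Igfbp5 made up most of the binding protein transcripts in parental cells. Of the summed level of Igfbp1 to Igfbp7, Igfbp5 took 88.2% ± 0.908 (SD, n = 2) in parental, 6.83% ± 0.559 in clone 1 and 9.92% ± 0.400 in clone 2. Igfbp2 took 4.68% ± 0.296, 45.8% ± 2.86 and 62.3% ± 1.51 in the same order. Igfbp3 took 2.01% ± 0.0326, 30.1% ± 2.14 and 14.3% ± 0.720, and Igfbp4 3.13% ± 0.187, 15.9% ± 0.103 and 11.7% ± 0.243. The sum itself was 130.2 ± 0.184 CPM per kb in parental, 462 ± 15.3 in clone 1 and 567 ± 25.7 in clone 2. Igfbp1, the neighbour of Igfbp3 across 3539 bases on chromosome 11 of GRCm38, stayed at 8 counts or fewer in every library. Igfbp6 was at 0.514 ± 0.145 CPM per kb in parental, 0.553 ± 0.181 in clone 1 and 0.864 ± 0.0455 in clone 2.

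**Figure D3:**
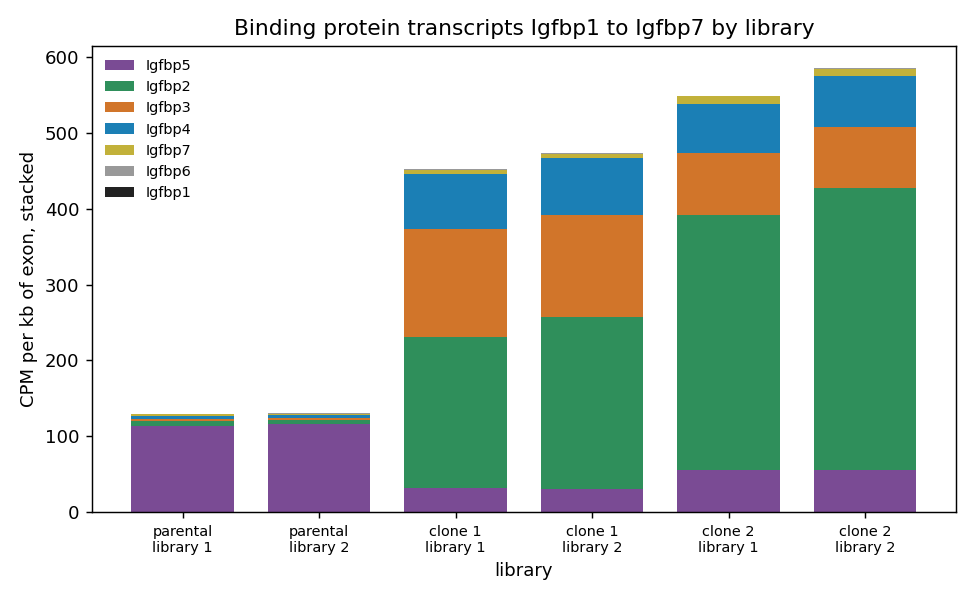
Summed level of Igfbp1 to Igfbp7 in each of the 6 libraries, in CPM per kb of exon, stacked by gene. The parental bars reach 130 and are mostly Igfbp5, while the bars of the clones reach 452 to 585 and are mostly Igfbp2, Igfbp3 and Igfbp4.

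Of the ligands, Igf1 had 7 and 1 counts in parental cells, 4 and 1 in clone 1, and 0 and 0 in clone 2. A count of 0 allows up to 0.0459 and 0.0492 CPM in the 2 libraries of clone 2 (3 counts, counting error only). No group difference was detectable at this depth. Igf2, the fetal IGF, had 15 and 11 counts in parental, 2 and 1 in clone 1, and 1 and 0 in clone 2. It was called lower (adjusted p = 0.0146, edgeR), but not without parental library 1 (0.129) or 2 (0.0761). The insulin gene Ins1 had 2 counts in all. The ligand genes that were counted were near 0 in cells whose receptor gene Igf1r had at least 12085 counts a library.

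The receptor genes were higher in both clones. Igf1r, the receptor of IGF1 and IGF2, had 207 and 205 CPM in parental cells, against 376 and 373 in clone 1, and 250.2 and 248 in clone 2. The groups did not overlap, and clone 2 lay much nearer to parental than clone 1 did. With the clones as replicates the log2 fold change was 0.63 (SE 0.19) and missed the threshold; DESeq2 gave adjusted p = 0.0325, and edgeR with no filter on low counts gave 0.0322. In the fit of single libraries clone 1 was higher by 0.86 (SE 0.040, adjusted p = 1.01e-11) and clone 2 by 0.28 (SE 0.039, adjusted p = 1.69e-05). Those p-values rest on the spread between libraries of a group, pooled over all 3 groups. Within a knockout clone that spread may be technical. The groups pooled were unlike in spread. A chi-square of the counts between the 2 libraries of a group averaged 3.48 per gene in parental, 22.1 in clone 1 and 4.92 in clone 2.

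Insr, the insulin receptor gene, had 104.6 and 103.6 CPM in parental cells, against 164 and 168 in clone 1, and 145 and 143 in clone 2. All 4 labelled knockout libraries were above both parental ones, and clone 1 was again the highest. The log2 fold change was 0.61 (SE 0.098, adjusted p = 0.0107, edgeR). Per kb, Igf1r was 1.62-fold Insr in parental cells (SD 0.000195, n = 2), 1.85-fold in clone 1 (SD 0.0406) and 1.42-fold in clone 2 (SD 0.00677). So the 2 clones moved this ratio to opposite sides of the parental value.

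The adaptor genes Irs1 and Irs2, which carry the signal from both receptors to PI3K, were higher by less than the 4 binding protein genes of the set that rose. Irs1 was at 111 and 109 CPM in parental, 146 and 152 in clone 1, and 138 and 144 in clone 2 (log2 fold change 0.43, SE 0.084, adjusted p = 0.0189, edgeR). Irs2 was at 206 and 210 CPM in parental, 340 and 327 in clone 1, and 269.8 and 271 in clone 2 (0.57, SE 0.12, adjusted p = 0.0232, edgeR). In neither gene did a labelled knockout library overlap the parental ones. Per kb, Irs2 exceeded Irs1 in every group, at a ratio of 2.73 ± 0.0770 (SD, n = 2) in parental, 3.23 ± 0.183 in clone 1 and 2.78 ± 0.0862 in clone 2. Irs4, which is not in the set but among the receptor adaptors listed below, was lower in both clones. It had 42.8 CPM in parental, 8.30 in clone 1 and 3.14 in clone 2 (log2 fold change -2.87, SE 0.47, adjusted p = 0.0136, edgeR). Irs1 (chromosome 1, 82233101 to 82291416, minus strand) shares 2822 exon bases with the gene model Gm9747 on the other strand; Gm9747 had 0 counts over the 6 libraries, beside 51627 for Irs1, and reads in the shared bases cannot be assigned without strand.

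The order of the 10 genes per kb differed between parental and labelled knockout cells. In parental cells Igfbp5 led with 115 CPM per kb, followed by Irs2 (32.9), Igf1r (12.3), Irs1 (12.1), Insr (7.57), Igfbp2 (6.09), Igfbp4 (4.07), Igfbp3 (2.61) and Igfbp7 (2.05). Igf1r and Irs1 were the closest neighbours there, with libraries at 12.2 to 12.3 and 11.9 to 12.2. In both clones Igfbp2 led (212 and 353 CPM per kb), followed by Igfbp3 (139 and 80.8) and Igfbp4 (73.6 and 66.3). Igfbp5 was the fifth in clone 1 (31.5) and the fourth in clone 2 (56.2), and Igf1 was the last in every group. In clone 2 Irs1 (15.4) and Igf1r (14.8) changed places. With 2 libraries a group, neighbours whose libraries do not overlap are not thereby shown to differ.

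The clones were also compared with each other, in 1 fit of 6 libraries in 3 groups. Of the 9 tested genes, 3 were higher in clone 2 than in clone 1 and 5 were lower; over all 23400 genes 36.4% passed, 16.1% higher and 20.3% lower. Igfbp5 (0.83, SE 0.043), Igfbp7 (0.75, SE 0.12) and Igfbp2 (0.74, SE 0.067) were higher in clone 2 on the log2 scale. Igfbp3 (-0.78, SE 0.042), Igf1r (-0.59, SE 0.039), Irs2 (-0.30, SE 0.041), Insr (-0.20, SE 0.042) and Igfbp4 (-0.15, SE 0.045) were lower. The adjusted p of these 8 ran from 4.55e-10 for Igfbp5 to 0.0159 for Igfbp4 (edgeR). The call of Igfbp4 was lost without either parental library (0.0668 and 0.0685) and without either library of clone 2 (0.262 and 0.0903). Irs1 did not pass (-0.08, SE 0.045, adjusted p = 0.161). Igfbp2 was 1.53-fold Igfbp3 per kb in clone 1 (SD 0.203, n = 2) and 4.37-fold in clone 2 (SD 0.327), against 2.33-fold in parental (SD 0.185).

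The 2 clones were each compared with the parental libraries in the same fit. All 9 tested genes passed in each clone, with 8 higher and 1 lower in both. For clone 1, 54.5% of all tested genes were called, made up of 27.3% upward and 27.2% downward. The share for clone 2 was 53.5%, made up of 26.7% in the upward and 26.8% in the downward direction. Both comparisons use the same parental libraries. The receptor and adaptor genes Igf1r, Insr, Irs1 and Irs2 had log2 fold changes of 0.44 to 0.86 in clone 1 and 0.28 to 0.47 in clone 2.

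For each gene with a mean of at least 5 CPM, the 2 genes with the most similar pattern were found as those with the smallest root mean square difference of centred log2 CPM over the 6 libraries, out of 10186. These were Hydin and Gsg1l for Igfbp2 (0.28 and 0.40, log2), Hmcn1 and Kif23 for Igfbp3 (0.085 and 0.10), Spry1 and Racgap1 for Igfbp4 (0.075 and 0.14), Igdcc4 and S1pr1 for Igfbp5 (0.068 and 0.069) and Hk2 and Lbx1 for Igfbp7 (0.11 and 0.13). For the receptor and adaptor genes they were Sgk1 and Ppat (Igf1r), Phf20 and Cryz (Insr), Brd8 and Parva (Irs1) and Topbp1 and Adam10 (Irs2), at 0.011 to 0.035. With 3 groups of 2 libraries, likeness rests on 3 group levels. Igfbp2 had the least close match, and no other binding protein of the set was among these genes.

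The rest of the pathway was described with 9 lists of 79 genes, of which 76 were tested with the clones as replicates. Of these 11 were higher and 20 lower, beside 13% higher and 13.6% lower of all genes tested, with a median log2 fold change of 0.05 against 0.03 over all genes. The split depended on the setting: with no filter on low counts 16 were higher and 16 lower of 78, and with single libraries as replicates 28 and 29 of 74. The list of other receptors had both tested members lower. Igf2r, whose product clears IGF2 from the cell surface, had 6559 and 5903 counts in parental, 186 and 213 in clone 1, and 250 and 255 in clone 2 (-4.84, SE 0.18, adjusted p = 0.000217, edgeR). Insrr, an orphan relative of Insr, had 17 and 11, 3 and 3, and 0 and 1 counts (adjusted p = 0.0378, lost without either parental library at 0.228 and 0.108, and in 1 other setting). Among other carriers, the neural IGFBP-like gene Igfbpl1 fell from 2.71 to 0.291 and 0.192 CPM (-3.46, SE 0.28, adjusted p = 0.00121).

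Of 8 genes for proteases of the binding proteins, their inhibitors and convertases of IGF precursors, 3 were higher and 2 lower. The shares over all genes tested were 13% higher and 13.6% lower. Stc1 and Stc2, which encode stanniocalcins that inhibit PAPP-A, rose by 2.02 (SE 0.20) and 2.52 (SE 0.24) on the log2 scale. The PAPP-A gene Pappa itself had 9 and 9 counts in parental, 2 and 7 in clone 1, and 5 and 2 in clone 2, and did not pass (adjusted p = 0.134). The serine protease gene Htra3 fell from 39.1 CPM to 11.6 and 14.5 (-1.55, SE 0.15). Htra1, which can cut IGFBP5, rose from 54.5 to 76.0 CPM in both clones (0.51, SE 0.085, adjusted p = 0.0115), but not without either parental library (0.193 and 0.245).

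Among 13 receptor adaptors and phosphatases 0 were higher by edgeR's test and 6 lower, beside 13% and 13.6% of all genes tested. At an unadjusted p under 0.05, 1 was higher, and by DESeq2 0. The suppressors of cytokine signalling, which also damp insulin receptor signalling, fell together: Socs3 from 100.3 CPM to 3.55 and 4.67 (-4.58, SE 0.17), Socs2 from 27.5 to 2.76 and 2.74 (-3.28, SE 0.12) and Socs1 from 5.07 to 1.66 and 1.93 (-1.46, SE 0.19). Without parental library 1, Socs1 did not pass (adjusted p = 0.0522). The docking protein gene Gab1 fell from 429 CPM to 234 and 176 (-1.03, SE 0.15). The adaptor gene Grb2 was lower in clone 1 (-0.14) and higher in clone 2 (0.17) than in parental.

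Of 17 genes of PI3K, AKT and their brakes, 5 were higher and 2 lower, beside 13% and 13.6% of all genes tested. Pik3r3, a regulatory subunit of PI3K, rose from 27.0 CPM to 56.9 and 88.9 (1.47, SE 0.22), and Pik3cd, a catalytic subunit, fell from 2.68 to 0.587 and 0.532 (-2.22, SE 0.23). The lipid phosphatase genes Inppl1 (0.66, SE 0.087) and Inpp4b (0.76, SE 0.13) were higher, though leaving out 1 of the parental libraries ended both calls (adjusted p from 0.0884 to 0.128). Pik3cb was higher in clone 1 (0.27) and lower in clone 2 (-0.35). Akt1 and Akt2 did not pass, with log2 fold changes of 0.09 and 0.04. In the mTOR branch 1 of 12 genes passed, beside 26.7% of all genes tested. The 1 gene was Deptor, which encodes an mTOR inhibitor (-0.91, SE 0.25, adjusted p = 0.0478, edgeR), and it missed the threshold under 6 of 12 alternatives. In the fit of single libraries, 3 of the 12 genes were higher and 4 lower in clone 1. In clone 2, 4 were higher and 5 lower. Over all genes tested the shares were 27.3% higher and 27.2% lower in clone 1, and 26.7% and 26.8% in clone 2.

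Of the FOXO and GSK3 genes 1 of 6 was higher and 1 lower, beside 13% and 13.6% of all genes tested. These were Foxo4 (0.41, SE 0.089) and Foxo1 (-0.61, SE 0.15), and both calls ended when 1 of the parental libraries was left out. Foxo3 differed in direction between the clones, at -0.28 in clone 1 and 0.39 in clone 2. Of 11 genes known as FOXO targets, 4 were lower and 1 higher, beside 13.6% and 13% of all genes tested. Bcl2l11, which encodes the cell death protein BIM, fell from 112 CPM to 25.4 and 25.1 (-2.12, SE 0.087), and the ubiquitin ligase gene Fbxo32 from 83.0 to 31.3 and 28.3 (-1.45, SE 0.096). Ccng2 rose from 25.2 to 60.3 and 46.6 (1.11, SE 0.14). Sesn1 was lower (-0.54, SE 0.11), but not without either parental library (0.269 and 0.184). Of the IGF2 mRNA-binding proteins, Igf2bp2 rose from 5.64 CPM to 19.5 and 19.1 (1.81, SE 0.12), and Igf2bp3 was lower in clone 1 (-0.37) and higher in clone 2 (0.38).

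**Figure D4:**
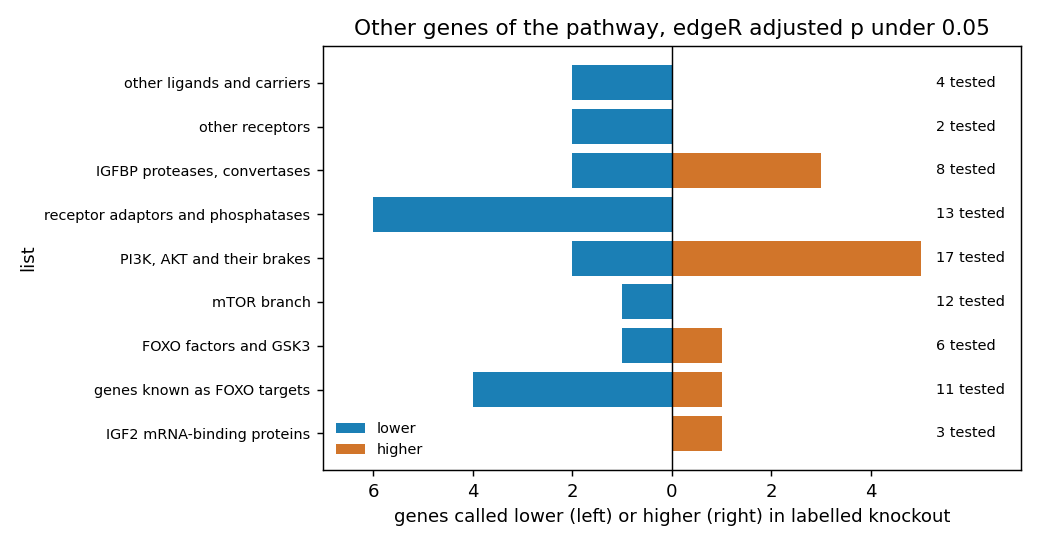
Number of genes in each of the 9 pathway lists called lower (left) or higher (right) in labelled knockout against parental cells (edgeR adjusted p under 0.05), with the number tested at the right. The adaptor list has 6 lower and 0 higher, and the list of PI3K, AKT and their brakes has 5 higher and 2 lower. Of all genes tested, 13% were higher and 13.6% lower.

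The libraries differed in cell type markers as well. Counts of markers called are for labelled knockout against parental, where 13% of all genes tested were higher and 13.6% lower. The summed level of 7 genes of dividing cells (such as Mki67 and Top2a) was 12.2 to 13.7 CPM in parental, 1029 to 1059 in clone 1 and 645 to 647 in clone 2, and all 7 rose. The sum of 8 astrocyte markers was 7238 to 7265, 2695 to 2713 and 3656 to 3686 CPM (4 lower and 1 higher). Gfap fell from 2691 CPM to 1.59 and 9.70, Aqp4 from 742 to 25.2 and 28.7, and Gja1 from 432 to 0.556 and 1.10. Slc1a3 fell less, from 1579 CPM to 1062 and 1078, and S100b rose from 52.4 to 70.5 and 90.1. The sum of 8 oligodendrocyte lineage markers was 1290 to 1292, 5243 to 5346 and 6189 to 6454 CPM (3 higher and 2 lower). The 10 neural progenitor markers summed to 3740 to 3752, 2754 to 2771 and 3288 to 3302 CPM (3 higher and 4 lower), and 9 of them reached 1 CPM. All 7 microglial markers were under 1 CPM in every library, as were 3 of 6 fibroblast markers. The 7 mural cell markers summed to 7.09 to 7.28, 0.903 to 1.33 and 0.665 to 0.921 CPM; 4 were lower, 0 were higher, and 5 were under 1 CPM in every library. Among the lower ones Kcnj8 fell from 3.53 CPM to 0.0219 and 0.0540, and Rgs5 from 1.51 to 0.0378 and 0.00755. The 7 neuronal markers summed to 1057 to 1064, 1349 to 1503 and 1038 to 1062 CPM, a sum made up mostly of Map2, while 3 were lower and 0 higher: Dcx (from 66.8 CPM to 10.4 and 8.43), Tubb3 (from 13.1 to 3.22 and 2.64) and Stmn2 (under 1 CPM in every library). The part of these marker shifts in the levels of the IGF genes was not tested.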

How the data were processed

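RNA of 6 libraries was sequenced. Per the labels' protocols, libraries were made with a SMART-Seq ultra-low input or a TruSeq kit; no source says which kit served which library. Per the submitters' processing notes, STAR and featureCounts were used with builds GRCm38.p6 and mm10. The deposited table holds raw counts per gene, not normalized. No source used here gives its settings for strand or multi-mapping.

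The tests ran in edgeR 4.0.16 (R 4.3.3): filterByExpr (minimum count of 10), TMM scaling, the robust quasi-likelihood test and Benjamini-Hochberg adjustment over all genes tested. Genotype was tested with the libraries of a clone added (2 residual degrees of freedom). Clones were tested as contrasts of 1 fit of 6 libraries (3 residual degrees of freedom). SE is the log2 fold change divided by the square root of F. CPM used TMM-scaled totals, and centred log2 CPM a prior count of 2. Exon lengths and positions came from GENCODE M21 (GRCm38), which held 41869 of 42365 IDs; promoters came from RefSeq (GRCm38.p6), with 9 of 10 genes matched. The titles give the parental libraries different clone numbers and the libraries of a knockout clone the same one; nothing says whether the latter came from separate cultures, so their spread may be technical. In simulated data 50 genes were altered at each fold. Of those altered 1.5-fold, 2-fold and 4-fold, 6%, 30% and 68% were called with the clones as replicates (24506 genes). In clone 1 these shares were 44%, 60% and 88% (23400 genes). In the data 26.7% and 54.5% of genes passed, far more than were altered, so the Benjamini-Hochberg cutoff was stricter in the simulation. The shares are therefore not detection rates for these data.

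The 10 genes, the lists and the tests were chosen with earlier results of these data known. Of each pathway list, up to 4 called genes with the smallest adjusted p were named, and up to 3 whose calls differed in direction between the clones. Pappa, Ins1, Igfbp1, Igfbp6, Irs4, Akt1 and Akt2 were added after their values were seen. The targeted gene and some genes of the lists are not reported here by name or level. Genes most like a member were sought among those with symbols other than Gm and Rik models. Alternatives were DESeq2 size factors, upper quartile scaling, DESeq2 1.42.0, no filter, a minimum mean of 5 CPM, libraries as replicates, a replicate block and leaving out each library; those for the pathway lists were chosen after seeing the data.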

Additional observations from a re-analysis of the deposited data

Results flagged for a closer look

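In 8 of the 9 tested genes the response differed between the clones, as tested by clone 2 against clone 1 (edgeR, adjusted p from 4.55e-10 to 0.0159). On the log2 scale, Igfbp5 differed by 0.83, Igfbp7 by 0.75 and Igfbp2 by 0.74, with both libraries of clone 2 above both of clone 1. Igfbp3 differed by -0.78, Igf1r by -0.59, Irs2 by -0.30, Insr by -0.20 and Igfbp4 by -0.15, with both libraries of clone 2 below both of clone 1. The replicates here are libraries of a clone, the spread is pooled over all 3 groups, and 36.4% of all genes passed the same test.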

How the results depend on the processing

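No call of the 9 genes against parental in either clone changed under the 12 alternatives run. With the clones as replicates, 96 of 108 values stayed on their side of the threshold, 9 were lost, 3 were gained and 0 reversed. Leaving out 1 library gave 4 to 8 called genes of the set, 14 to 34 of the pathway lists and 2529 to 6714 of all genes; the low values are those without a parental library, where 1 degree of freedom is left and the lone parental library is assumed to vary like the clones. With a mean of at least 5 CPM, where fewer genes are tested, 3761 genes passed with the clones as replicates, 8019 in clone 1 and 7850 in clone 2. With libraries as replicates the mean of the clones gave 13213 genes and 57 of the pathway lists. With no filter, Igf1 did not pass in any comparison (edgeR, adjusted p from 0.0602 to 0.731). The log2 fold changes of all genes then moved by a median of 0.09 with the clones as replicates. That median was 0.044 in clone 1, 0.068 in clone 2 and 0.024 between the clones. A replicate block from the labels' numbers gave 12659 genes in clone 1, 12412 in clone 2 and 8449 between the clones, and changed no call of the set. Deviations of same-numbered libraries correlated at -0.015 to 0.019, so no pairing by number was seen. With 1 deviation per gene and group, counting noise could hide one. The summed columns carry no number to block on.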
